A study of Homo sapiens with 6 samples.

Results

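DU145 and 769-P, the prostate and the renal carcinoma line used to study SPOP, were compared with each other in the RNA-Seq libraries of the siRNA experiment. All 3 DU145 libraries were set against all 3 769-P libraries, which makes up all 6 samples of the series. SPOP is the substrate adaptor of a CULLIN3 ubiquitin ligase, and the experiment was made to see how its loss changes expression in the 2 cancers. DU145 is labelled as a prostate carcinoma line, and it is known to have been established from a brain metastasis. 769-P is labelled as a renal cell adenocarcinoma line, and the study uses it as a model of clear cell renal carcinoma. In each line, 1 library stood for the negative control siRNA (NC) and 1 each for the SPOP siRNAs 1 (si1) and 2 (si2), so that both groups mixed 1 control with 2 knockdowns. Each group stood for a single established line, and the labels do not say whether the libraries came from separate cultures. The tests below therefore measured the spread between these libraries, and a difference between the lines cannot be told apart from a difference between prostate and kidney cells or between 2 individual tumours.

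A carcinoma line keeps part of the expression program of the tissue it came from. In kidney tubules this program is held by transcription factors such as PAX8, PAX2 and LHX1, and in prostate epithelium by factors such as FOXA1 and HOXB13. Epithelial cells are held together by cadherins, claudins and keratins, whereas cells of a mesenchymal type carry vimentin, N-cadherin and a matrix rich in fibronectin. In clear cell renal carcinoma the VHL tumour suppressor, which targets the hypoxia-inducible factors for degradation, is usually lost.

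The libraries gave FPKM values (fragments scaled to transcript length and to the fragments mapped in the library), without read counts, so the depth of a library was known only relative to another. Low values put the depths between 0.683 and 1.4 times that of the 769-P control. SPOP, the targeted gene on chromosome 17, had 11.6, 1.53 and 1.39 FPKM in the 769-P NC, si1 and si2 libraries and 16.1, 2.77 and 2.96 FPKM in the DU145 libraries. The knockdown was therefore seen in both lines, and the ranges of the lines overlapped. On the log2(FPKM + 1) scale SPOP was 0.58 higher in DU145 (standard error 0.18, adjusted p = 0.0151 by limma with Benjamini-Hochberg adjustment), a call that was lost when the si1 or the si2 library was left out in either line (limma, adjusted p from 0.0548 to 0.0876). The call was also lost after quantile normalization (difference 0.27, adjusted p = 0.158) and without the siRNA label as a block (adjusted p = 0.516). Pairs of libraries of the same line correlated at r = 0.965 to 0.981 across genes, and pairs of different lines at 0.767 to 0.808. The DU145 NC and 769-P si2 libraries stood apart in their low values, with 287 and 237 of 366 olfactory receptor genes above 0 FPKM, against 3 to 5 in the other 4 libraries. Both lines thus held 1 library of this kind. Without these libraries SPOP differed by -0.54 (limma, adjusted p = 0.577), a comparison that keeps the control of 769-P and not that of DU145.

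More genes were higher in DU145 than in 769-P. Among the 11710 genes that averaged 1 FPKM or more, 4319 (36.9%) were higher in DU145 and 2522 (21.5%) were higher in 769-P, which together makes 58.4% called at an adjusted p under 0.05. A difference of at least 4-fold on the log2(FPKM + 1) scale was called for 745 genes (6.36%) higher in DU145 and for 333 genes (2.84%) higher in 769-P. The median difference of all genes tested was 0.16 in favour of DU145. Quantile normalization moved this median by -0.21, and the share of calls that were higher in DU145 went from 63.1% to 47.9%, with 3390 genes higher in DU145 and 3694 higher in 769-P. No gene was then called in the opposite direction, and 1077 of the 1078 calls of at least 4-fold stayed as they were. The surplus of small differences in favour of DU145 thus depended on the scaling, and the large differences described below did not. Without the DU145 NC and 769-P si2 libraries, 2734 genes were higher in DU145 and 1332 higher in 769-P.

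**Figure D1:**
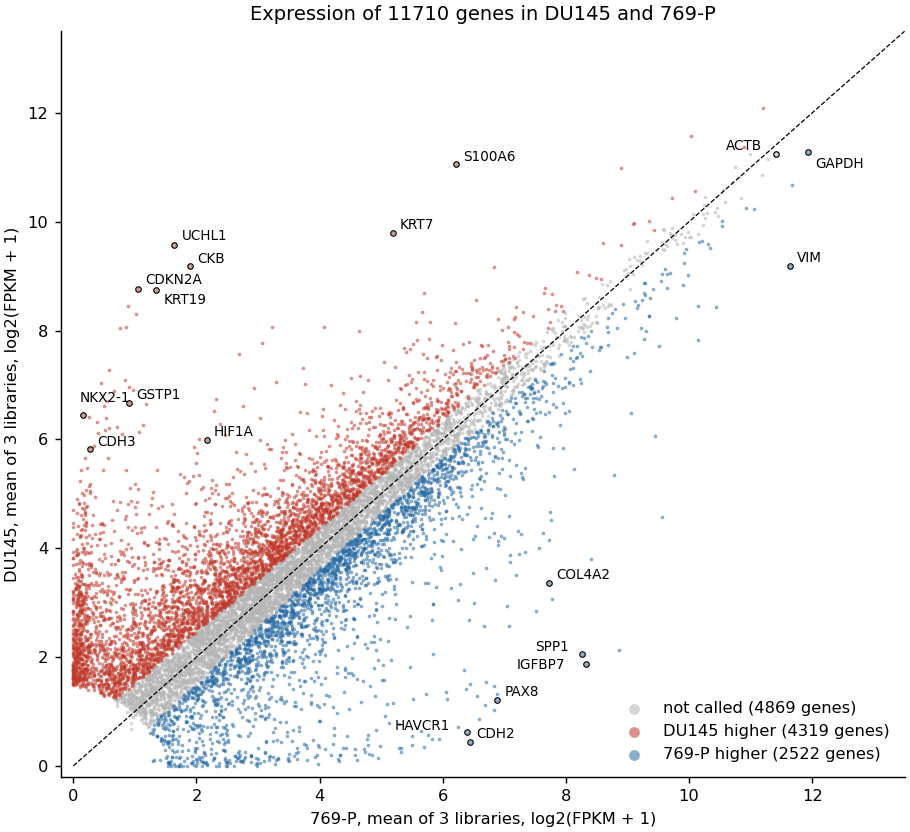
Mean expression of each gene in 769-P (x axis) and in DU145 (y axis), both in log2(FPKM + 1) and over 3 libraries, for the 11710 genes tested, with red for genes called higher in DU145, blue for genes called higher in 769-P and grey for genes not called. UCHL1, CDKN2A and KRT19 lie at the upper left, SPP1, PAX8 and CDH2 at the lower right, and ACTB on the diagonal (dashed).

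The genes with the largest differences in favour of DU145 were close to absent from 769-P. UCHL1, a ubiquitin hydrolase abundant in neurons, on chromosome 4 of GRCh37 from 41258430 to 41270472, had 771, 716 and 789 FPKM in the DU145 NC, si1 and si2 libraries and 3.3, 0 and 6.06 FPKM in the 769-P libraries. The line difference was 7.93 (standard error 0.34, adjusted p = 9.47e-10). CDKN2A, which codes for the cell cycle inhibitor p16, had 375, 517 and 418 FPKM in DU145 and 2.36, 0 and 1.62 FPKM in 769-P, a difference of 7.72 (standard error 0.3). No 769-P library came near the DU145 range for either gene.

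Epithelial, metabolic and cytoskeletal genes made up most of the other leading genes. KRT19, a keratin of simple epithelia, had 446, 384 and 462 FPKM in DU145 and 2.6, 0 and 3.56 FPKM in 769-P. CKB, the brain form of creatine kinase, was even across the DU145 libraries at 578 ± 5.51 FPKM (SD, n = 3) and lay between 0.46 and 4.98 FPKM in 769-P. PHGDH, the first enzyme of serine synthesis, had 158 ± 48.1 FPKM in DU145 and at most 0.976 FPKM in 769-P. The metal-binding MT1E, the caveolar coat protein gene PTRF, the small GTPase RHOD, the LIM protein gene CRIP1 and the row that lists NARR together with RAB34 differed by 6.23 to 7.56. In all these genes the groups did not overlap, which held in the same direction for 35.3% of all genes tested.

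NKX2-1 stood among these genes, although it is known as a transcription factor of lung and thyroid. It had 72.3, 105 and 84.6 FPKM in DU145 and 0.211, 0 and 0.149 FPKM in 769-P, a difference of 6.29 (standard error 0.19, adjusted p = 6.76e-11). Its level in DU145 was thus higher than that of FOXA1, a factor of prostate epithelium, which had 33.5, 18.2 and 31.9 FPKM there.

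The genes with the largest differences in favour of 769-P coded for secreted, surface and tubular proteins. IGFBP7, a secreted binding protein of insulin-like growth factors, had 227, 403 and 351 FPKM in the 769-P NC, si1 and si2 libraries and 4.62, 2.2 and 1.73 FPKM in DU145, and the difference was -6.45 (standard error 0.26, adjusted p = 5.29e-10). SPP1, the matrix protein osteopontin, had 382, 213 and 347 FPKM in 769-P and 2.58 to 3.95 FPKM in DU145. The mean FPKM in 769-P over that in DU145 gave ratios of 115 for IGFBP7 and 99.1 for SPP1.

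CDH2, the N-cadherin gene, had 80.6, 99.1 and 78.1 FPKM in 769-P and 0.564, 0.295 and 0.225 FPKM in DU145. HAVCR1, the kidney injury molecule KIM-1, had 83.2 ± 5.45 FPKM in 769-P and at most 0.786 FPKM in DU145. The other leading genes were IGFN1, CLDN2, a claudin of the leaky proximal tubule, the aminopeptidase gene ANPEP, PDZK1IP1, the proteoglycan gene SPOCK1 and a row that holds the UGT1A glucuronosyltransferases together, and they differed by -5.82 to -5.45. The groups did not overlap for any of these genes, and 21.3% of all genes tested had all 769-P libraries above all DU145 libraries.

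Low values limited the size of these differences in a way that varied with the library. For 13 genes with at least 100 FPKM in every DU145 library and a mean of at most 2% of that in 769-P, the median level was 0.499% of the DU145 mean in the 769-P NC library and 0.799% in the si2 library, and 11 of the 13 were listed at 0 in the si1 library. For 4 genes chosen in the same way in 769-P, the medians were 0.747% to 1.26% in the DU145 libraries. Whether these low values were transcripts of the line itself was not tested, and the folds of genes near 0 are accordingly uncertain.

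Promoter sequences of 2 genes from each side are shown as examples that differ in how many CG dinucleotides they hold. GSTP1, with a difference of 5.76, was not among the 12 largest differences in favour of DU145. The windows run from 250 bases before to 50 bases after the gene start and were taken from RefSeq on GRCh38.p14, 5′ to 3′ on the strand of the gene, with each CG in capitals. UCHL1 (chr4:41256678-41256977, plus strand) and GSTP1 (chr11:67583562-67583861, plus strand) were higher in DU145, and SPP1 (chr4:87975464-87975763, plus strand) and HAVCR1 (chr5:157059067-157059366, minus strand) were higher in 769-P.
UCHL1: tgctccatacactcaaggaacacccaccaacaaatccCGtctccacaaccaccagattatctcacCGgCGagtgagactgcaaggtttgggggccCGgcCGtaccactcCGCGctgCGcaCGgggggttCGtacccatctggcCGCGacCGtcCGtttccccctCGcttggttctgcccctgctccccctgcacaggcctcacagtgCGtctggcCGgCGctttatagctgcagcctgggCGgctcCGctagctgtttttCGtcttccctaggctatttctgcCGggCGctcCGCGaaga
GSTP1: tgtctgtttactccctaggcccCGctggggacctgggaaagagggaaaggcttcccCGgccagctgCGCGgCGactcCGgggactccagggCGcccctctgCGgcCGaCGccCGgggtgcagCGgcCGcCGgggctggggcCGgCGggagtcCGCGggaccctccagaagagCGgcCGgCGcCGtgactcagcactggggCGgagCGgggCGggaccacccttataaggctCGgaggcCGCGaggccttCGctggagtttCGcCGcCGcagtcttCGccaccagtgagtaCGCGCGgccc
SPP1: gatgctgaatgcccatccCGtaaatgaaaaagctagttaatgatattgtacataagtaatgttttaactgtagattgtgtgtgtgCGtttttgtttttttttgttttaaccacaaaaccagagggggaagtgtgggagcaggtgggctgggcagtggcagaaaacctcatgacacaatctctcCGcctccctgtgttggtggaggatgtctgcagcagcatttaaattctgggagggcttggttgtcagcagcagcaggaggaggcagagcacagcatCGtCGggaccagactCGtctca
HAVCR1: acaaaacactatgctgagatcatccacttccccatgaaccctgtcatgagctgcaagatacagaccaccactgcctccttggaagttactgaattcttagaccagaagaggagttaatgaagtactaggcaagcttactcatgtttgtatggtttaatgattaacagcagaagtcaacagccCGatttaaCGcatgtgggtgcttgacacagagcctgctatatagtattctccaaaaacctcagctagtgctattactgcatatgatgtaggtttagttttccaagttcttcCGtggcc

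The UCHL1 window held 25 CG dinucleotides and the GSTP1 window 36, against 6 in SPP1 and 3 in HAVCR1. The ratio of observed to expected CG was 0.87 for UCHL1, 0.879 for GSTP1, 0.369 for SPP1 and 0.217 for HAVCR1. GSTP1, a glutathione transferase, had 111, 76.9 and 119 FPKM in DU145 and 1.86, 0 and 1.31 FPKM in 769-P. Across genes, windows of the same length were read from GRCh37 for 88.7% of the genes tested. A ratio of at least 0.6 was found in 88.4% of them, in 78% of the genes at least 4-fold higher in DU145 and in 58.2% of the genes at least 4-fold higher in 769-P. Genes not called had it in 91.9%. Large differences thus fell more often on genes with CG-poor promoters, in favour of 769-P and to a smaller extent in favour of DU145. This is a description for which no test was run.

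Among the motifs searched on both strands, CAGGTG, the E-box bound by factors of the ZEB and SNAI families, was in 28.2% of the promoters of genes at least 4-fold higher in DU145, in 19.1% of those at least 4-fold higher in 769-P and in 18.2% of all. TGACTCA, the AP-1 motif, was in 5.92% of the promoters at least 4-fold higher in 769-P, in 3.66% of those at least 4-fold higher in DU145 and in 2.8% of all. ACGTG, the hypoxia response core, was in 18.8%, 23.4% and 26.9%, and GCGTG in 38.8%, 50.4% and 53.2%, in the same order. AACCGG, one arm of the grainyhead site, was in 9.87%, 8.7% and 11.3%, and the GC box GGGCGG in 64.5%, 78% and 76.2%. ACGTG and GCGTG, which share CGTG, and GGGCGG were thus least frequent in the genes at least 4-fold higher in 769-P, whereas AACCGG was least frequent in those higher in DU145. Each of these motifs holds a CG, and the promoters of genes at least 4-fold higher in 769-P were more often CG-poor, as given above. The part of CG content in these shares was not tested.

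The transcription factors of the kidney lineage were mostly higher in 769-P. Of 28 factors listed, 16 passed the filter on low values, and 12 of these were higher in 769-P, 3 were higher in DU145 and 1 was not called, with a median difference of -1.9 against 0.16 for all genes tested. A gene that passes the filter through 1 line alone has to differ, so counts of listed genes that passed are descriptions only. These counts stand beside 36.9% of all genes tested that were higher in DU145 and 21.5% that were higher in 769-P. PAX8, on chromosome 2 from 113973574 to 114036498, had 125, 106 and 120 FPKM in the 769-P NC, si1 and si2 libraries and 1.1, 1.47 and 1.4 FPKM in DU145, a difference of -5.67 (standard error 0.16, adjusted p = 5.99e-11). The level in DU145 was thus low and even over the libraries.

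PAX2, LHX1, HNF4G and IRX3 followed the same direction at lower levels. PAX2, the partner of PAX8 in the early kidney, had 6.42, 6.14 and 4.91 FPKM in 769-P and at most 0.16 FPKM in DU145. LHX1, required for the renal vesicle, had 44.8 ± 11.9 FPKM in 769-P and 13.6 ± 3.85 FPKM in DU145. HNF4G had 7.95 ± 2.85 FPKM in 769-P and at most 0.236 FPKM in DU145, and IRX3 had 12.1 ± 2.66 and 1.17 ± 0.859 FPKM. The groups did not overlap for any of these factors. The factors higher in DU145 included SIX2 and SIM2, both with low values. SIX2 differed by 0.86, and its call was lost after quantile normalization or without the DU145 NC and 769-P si2 libraries, whereas SIM2 differed by 1.39 (adjusted p = 9.5e-05). SOX9 had 12, 11.7 and 8.83 FPKM in 769-P and 4.79, 15.9 and 4.59 FPKM in DU145 and was not called, but without the si1 library of either line it differed by -0.99 (limma, adjusted p = 0.000309 and 0.000349).

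**Figure D2:**
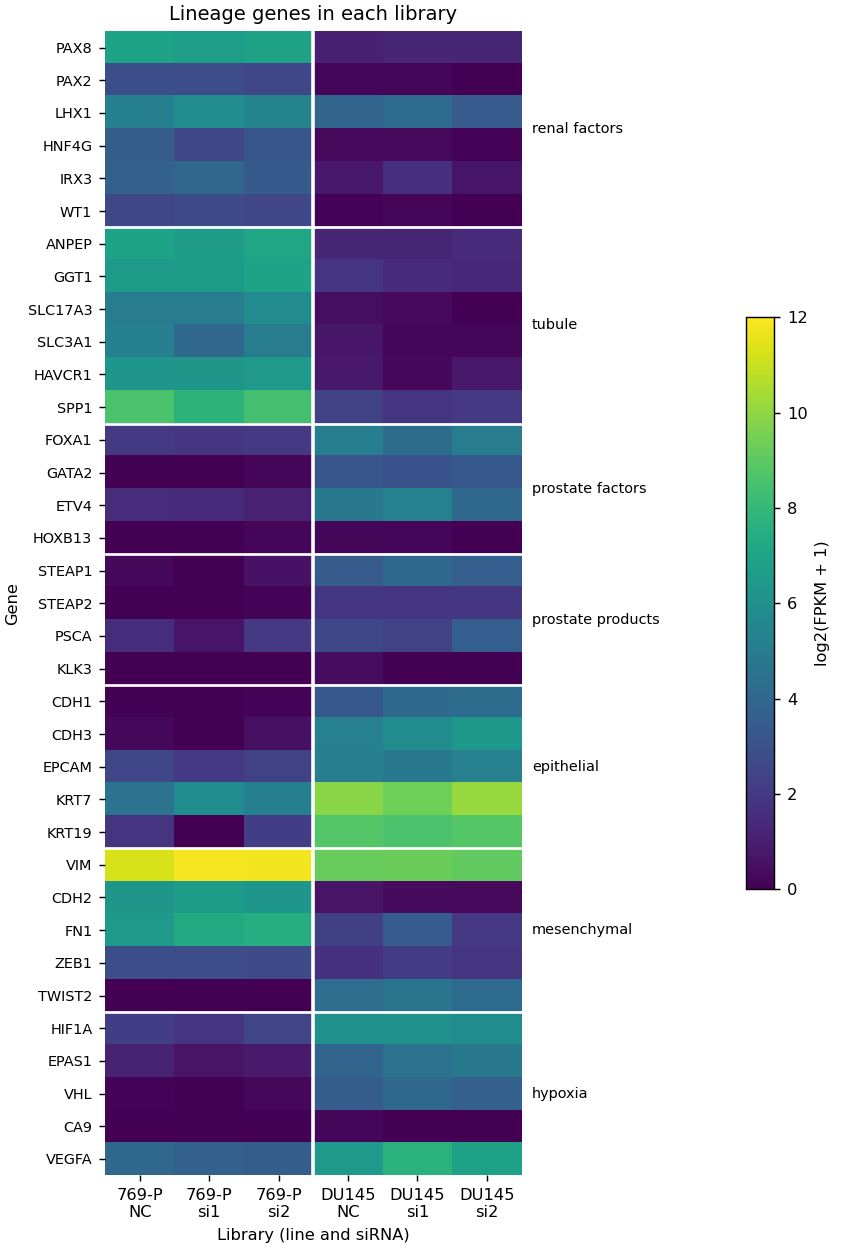
Expression of selected lineage genes in log2(FPKM + 1), shown as colour from 0 to 12, with 1 gene per row and 1 library per column. The kidney factors and tubule genes are brighter in the 3 769-P libraries than in DU145, the prostate factors FOXA1, GATA2 and ETV4 are brighter in the 3 DU145 libraries, and HOXB13, KLK3 and CA9 are dark in all 6.

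The factors of the prostate lineage that passed the filter were higher in DU145, and most others were near 0 in both lines. Of 18 listed factors, 9 passed the filter, and all 9 of these (100%) were higher in DU145, with a median difference of 1.81. The shares of all genes tested were 36.9% for DU145 and 21.5% for 769-P. After quantile normalization, or without the DU145 NC and 769-P si2 libraries, 8 were called higher in DU145. A factor that passes the filter through DU145 alone has to differ, so the count is a description only. HOXB13 had at most 0.127 FPKM in any library and TP63, the factor of basal cells, at most 0.122 FPKM, so both were at or near 0 in both lines. FOXA1, a factor that opens chromatin, had 3.05, 2.74 and 3.01 FPKM in 769-P and was 2.83 higher in DU145 (standard error 0.19, adjusted p = 4.07e-08). ETV4, an ETS factor, had 27.8, 38 and 15.7 FPKM in DU145 and 1.88, 1.81 and 1.15 FPKM in 769-P. GATA2 had 8.12, 7.05 and 8.92 FPKM in DU145 and at most 0.147 FPKM in 769-P. ETV1 did not pass the filter and had the reverse order. It had 1.93, 1.64 and 1.03 FPKM in 769-P and at most 0.105 FPKM in DU145. DU145 thus carried only part of the list.

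The secretory products of the prostate were mostly missing. Of 21 genes of this list in the tables, 6 passed the filter. Of these, 4 (66.7%) were higher in DU145 and 1 (16.7%) was higher in 769-P. The shares of all genes tested were 36.9% and 21.5%. The remaining gene, SLC45A3, was not called (difference -0.29, adjusted p = 0.27 by limma). KLK3, the prostate-specific antigen, was listed at 0 in 5 libraries and at 0.312 FPKM in the DU145 NC library. STEAP1, a metalloreductase of prostate cells, had 9.84, 16.1 and 11 FPKM in DU145 and at most 0.521 FPKM in 769-P. STEAP2 had 2.73, 2.51 and 2.77 FPKM in DU145 and 0, 0 and 0.0761 FPKM in 769-P, and PSCA differed by 1.42. PMEPA1, which is induced by TGF-beta, went the other way with 135 ± 17.5 FPKM in 769-P and 24.7 ± 10.4 FPKM in DU145. STEAP4 did not pass the filter and had at most 0.212 FPKM in any library. The tissue label of DU145 was therefore matched by genes such as FOXA1, STEAP1 and STEAP2 and not by others such as STEAP4, HOXB13 and KLK3. These are examples and not a tally. Of the 21 secretory genes, 15 did not pass the filter, and 6 were listed at 0 in all libraries. FOXA1 lies in a stretch of chromosome 14 where 33 of 35 genes tested were higher in DU145. Whether its difference was particular to the prostate lineage was not tested.

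Genes of the proximal tubule, where clear cell carcinoma is thought to arise, were partly kept in 769-P. Of 29 such genes in the tables, 11 passed the filter. Of these, 8 (72.7%) were higher in 769-P and 2 (18.2%) in DU145, and the median difference was -3.03. The shares of all genes tested were 21.5% and 36.9%. A gene that passes the filter through 769-P alone has to differ, so these counts are descriptions only. ANPEP, the brush border aminopeptidase, had 122, 96.3 and 137 FPKM in 769-P and 1.46, 1.33 and 1.71 FPKM in DU145. GGT1, which breaks down glutathione at the same border, had 93.5, 93.1 and 124 FPKM in 769-P and 1.59 to 2.49 FPKM in DU145. The phosphate and urate transporter gene SLC17A3 had 32.9, 33.3 and 54.5 FPKM in 769-P and at most 0.383 FPKM in DU145, and SLC3A1, a subunit of the cystine transporter, had 35.5, 15.6 and 33 FPKM and at most 0.673 FPKM.

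The large endocytic receptors of this segment were not among the genes kept. CUBN, the cubilin gene, had 0.874, 0.512 and 1.24 FPKM in 769-P and 0.0934, 0.211 and 0.107 FPKM in DU145 and did not pass the filter, and LRP2, the megalin gene, had at most 0.0471 FPKM in any library. FBP1 and GATM, enzymes of gluconeogenesis and of creatine synthesis, were the members higher in DU145, by 2.88 and 2.33. Of 21 markers of injured kidney and renal carcinoma that passed, 9 (42.9%) were higher in each line, against 36.9% of all genes for DU145 and 21.5% for 769-P. HAVCR1 and SPP1 led one side, and the mucin MUC1 led the other, with 68.2, 49.6 and 131 FPKM in DU145 and 1.65, 0.593 and 1.48 FPKM in 769-P. KRT7, a keratin of ducts, had 933, 652 and 1140 FPKM in DU145 and 22.5, 55.2 and 35.7 FPKM in 769-P.

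The genes of the VHL and hypoxia-inducible factor pathway were not higher in the renal line. VHL had 0.1, 0 and 0.212 FPKM in the 769-P NC, si1 and si2 libraries and 10.7, 14.8 and 11.9 FPKM in DU145, a difference of 3.6 (standard error 0.2, adjusted p = 1.05e-08). HIF1A, on chromosome 14 from 62162231 to 62214977, had 3.46, 2.5 and 4.78 FPKM in 769-P and 64.4, 68.1 and 56.1 FPKM in DU145 (difference 3.83, standard error 0.19). EPAS1, which codes for HIF-2alpha, had 1.2, 0.561 and 0.817 FPKM in 769-P and 13.4, 21.4 and 27.5 FPKM in DU145. All these genes were thus lower in 769-P at the RNA level, with no overlap of the groups.

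Of 36 factors and targets listed, 32 passed the filter. Of these, 16 (50%) were higher in DU145, 8 (25%) were higher in 769-P and 8 were not called, and the median was 0.45. The shares of all genes tested were 36.9% and 21.5%. CA9, a carbonic anhydrase and marker of clear cell renal carcinoma, was listed at 0 in all 769-P libraries and at 0.13 FPKM in the DU145 NC library alone. PLOD2, a lysyl hydroxylase of collagen, had 42.8, 29.4 and 59.2 FPKM in DU145 and 0.725, 0.575 and 1.18 FPKM in 769-P. ANGPTL4, a lipase inhibitor, had 34.3 ± 8.13 FPKM in DU145 and 0.965 ± 0.623 FPKM in 769-P. VEGFA, the vascular growth factor, differed in the same direction by 3.25. The glycolytic gene PGK1, with a difference of -0.81, was among the targets higher in 769-P.

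**Figure D3:**
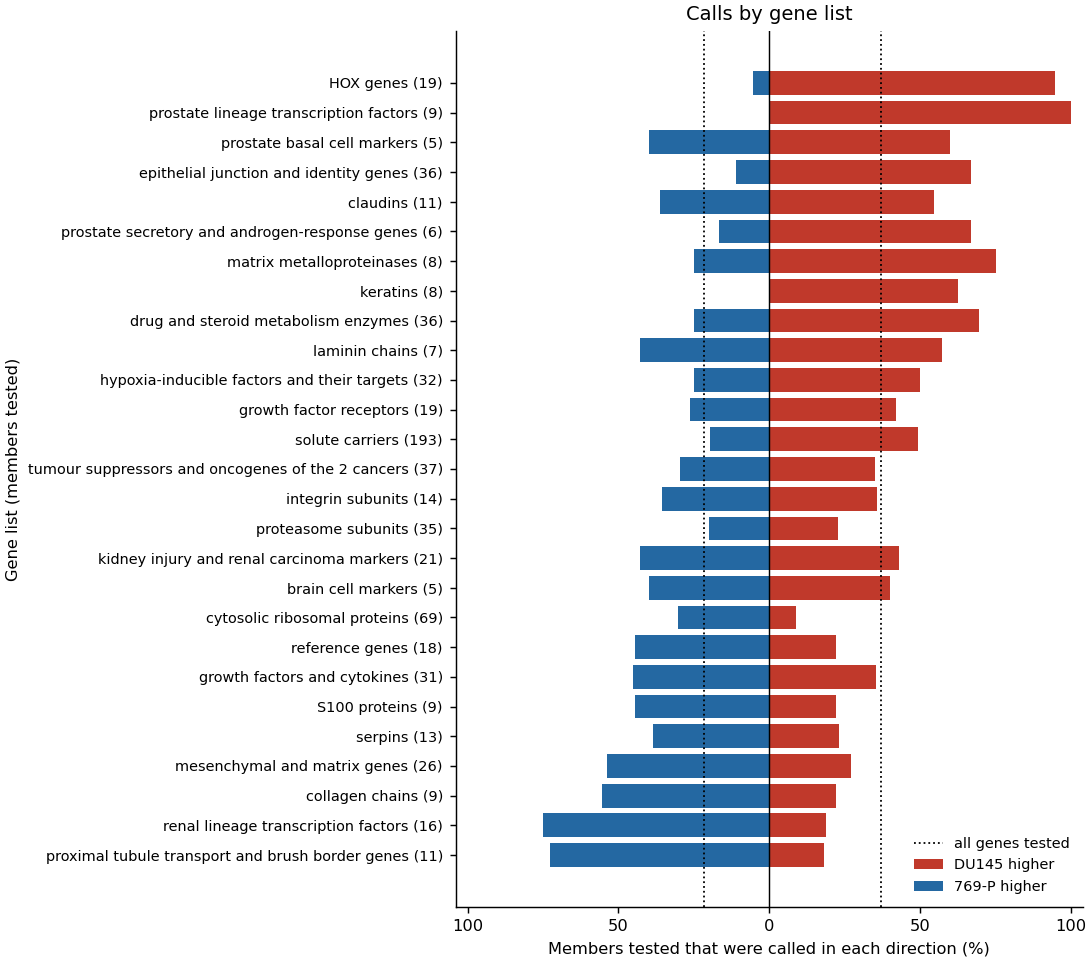
For the gene lists with at least 5 members that passed the filter (number in brackets), share of these members called higher in DU145 (red, to the right) or in 769-P (blue, to the left), in percent, sorted by the median difference, with dotted lines at 36.9% and 21.5%, the shares of all genes tested. Among the lists shown, prostate factors and HOX genes reach furthest to the right, and renal factors and proximal tubule genes furthest to the left.

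Epithelial junction genes were mostly higher in DU145. Of 44 listed genes, 36 passed the filter. Of these, 24 (66.7%) were higher in DU145, 4 (11.1%) were higher in 769-P and 8 were not called, and the median difference was 1.39. The shares of all genes tested were 36.9% and 21.5%. CDH1, the E-cadherin gene, had 8.87, 15.9 and 17.7 FPKM in DU145 and 0.046, 0 and 0.0977 FPKM in 769-P (difference 3.8, standard error 0.22, adjusted p = 1.23e-08). CDH3, the P-cadherin gene next to it on chromosome 16, had 35.9, 55.5 and 84.5 FPKM in DU145 and at most 0.442 FPKM in 769-P. With N-cadherin high in 769-P, the lines held different classical cadherins. EPCAM, the epithelial adhesion molecule, had 34.3, 27.6 and 36.2 FPKM in DU145 and 4.92, 2.95 and 4.16 FPKM in 769-P. SPINT1, an inhibitor of surface proteases, had 29.4, 16.9 and 39.9 FPKM in DU145 and 0, 0 and 0.209 FPKM in 769-P.

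769-P was not without epithelial genes. AP1M2, the adaptor subunit of polarized epithelia, had 31.5, 28.1 and 44.6 FPKM in 769-P and at most 1.37 FPKM in DU145, and CLDN1, CLDN4 and MAL2 were the other members higher in 769-P. The splicing factor gene ESRP1 had 1.77, 2.21 and 1.81 FPKM in DU145 and was listed at 0 in 769-P, and GRHL2 was at or near 0 in both lines, although both belong to the same epithelial program. Among claudins, 6 of 11 that passed (54.5%) were higher in DU145 and 4 (36.4%) higher in 769-P, against 36.9% and 21.5% of all genes tested. CLDN1 had 288, 148 and 176 FPKM in 769-P and 18.6 ± 2.67 FPKM in DU145, and its neighbour CLDN16, a claudin of the thick ascending limb, had 14.8, 8.56 and 8.21 FPKM in 769-P and at most 0.117 FPKM in DU145. CLDN11 had 7.77, 2.73 and 28 FPKM in DU145, a wide spread over the libraries, and at most 0.116 FPKM in 769-P.

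Of 54 keratins, 8 passed the filter, of which 5 (62.5%) were higher in DU145 and 0 higher in 769-P. The shares of all genes tested were 36.9% and 21.5%. KRT18 and KRT8, the pair of simple epithelia, were high in both lines, with 444 ± 88.3 FPKM for KRT18 in DU145 and 202 ± 28.1 FPKM in 769-P, and differences of 1.13 for KRT18 and 0.88 for KRT8. KRT81, a hair keratin with close relatives, differed by 2.5. KRT5, the keratin of basal cells, had at most 0.254 FPKM in any library. Among the basal markers BCAM, a laminin receptor, and the integrin ITGB4 were higher in DU145 by 5.07 and 2.89, and CD44 was higher in 769-P with a difference of -2.83. Of the basal markers that passed, 3 were higher in DU145 and 2 in 769-P.

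Mesenchymal and matrix genes leaned to 769-P without being confined to it. Of 44 in the tables, 26 passed the filter. Of these, 14 (53.8%) were higher in 769-P, 7 (26.9%) were higher in DU145 and 5 were not called, with a median of -0.51. The shares of all genes tested were 21.5% and 36.9%. VIM, the vimentin gene, had 2499, 3692 and 3517 FPKM in 769-P and 583, 635 and 541 FPKM in DU145, so it was abundant in both lines and 5.52-fold higher in 769-P by mean FPKM (difference -2.44, adjusted p = 8.39e-08). FN1, the fibronectin gene, had 87.5, 155 and 174 FPKM in 769-P and 3.84, 9.96 and 2.93 FPKM in DU145. ZEB1, a repressor of E-cadherin, had 6.11 ± 0.314 FPKM in 769-P and 2.72 ± 0.561 FPKM in DU145. TWIST2, another factor known from mesenchymal cells, had the opposite pattern, with 18.8, 24.4 and 17.4 FPKM in DU145, and was listed at 0 in all 769-P libraries.

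Chains of the basement membrane were found on both sides. COL4A1 and COL4A2, which lie head to head on chromosome 13 and form type IV collagen, had 81.3 ± 13 and 212 ± 23.7 FPKM in 769-P and 2.5 ± 0.949 and 9.35 ± 1.32 FPKM in DU145. LAMB1, a laminin beta chain, had 130 ± 6.86 FPKM in 769-P and 6.8 ± 1.58 FPKM in DU145. Other chains were higher in DU145, with LAMA1 at 5.56, 11.7 and 9.35 FPKM in DU145 and at most 0.0902 FPKM in 769-P, LAMA3 higher by 1.55, and COL13A1 listed at 0 in 769-P. Of 9 collagen chains that passed, 5 (55.6%) were higher in 769-P and 2 (22.2%) in DU145, and of 7 laminin chains 3 (42.9%) and 4 (57.1%). The shares of all genes tested were 21.5% and 36.9%. COL27A1 differed by -3.09.

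Integrins, proteases and their inhibitors included large differences in each direction. Of 14 integrin subunits that passed, 5 (35.7%) were higher in each line, against 36.9% of all genes for DU145 and 21.5% for 769-P. ITGB2, the subunit known from leukocytes, had 17.3, 17 and 29.4 FPKM in DU145 and at most 0.439 FPKM in 769-P, ITGA2 was higher in DU145 by 2.43, and ITGB6 was higher in 769-P (difference -2.7). Among 8 matrix metalloproteinases, the collagenase MMP1 had 33.8, 42.6 and 55.5 FPKM in 769-P and 3.35, 3.35 and 1.32 FPKM in DU145, whereas MMP15, MMP17 and MMP11 were higher in DU145 by 2.7, 2 and 1.66. Among 13 serpins, SERPINE2 had 138 ± 31.1 FPKM in 769-P and 12.4 ± 1.15 FPKM in DU145, SERPING1 was listed at 0 in 769-P with 3.29, 10.6 and 6.61 FPKM in DU145, and SERPINI1 was higher in DU145 by 1.84. The calcium-binding S100A6 had 1816, 2123 and 2508 FPKM in DU145 and 71.2, 59.6 and 92.8 FPKM in 769-P, while S100A2, S100A3 and S100A1, from the same cluster on chromosome 1, were higher in 769-P with differences of -3.08, -2.41 and -1.32. The S100A1 call was lost without the DU145 NC and 769-P si2 libraries (adjusted p = 0.0609).

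Single growth factor receptors and ligands differed strongly, although the receptors as a list were called about as often as all genes. Of 19 receptors that passed, 8 (42.1%) were higher in DU145 and 5 (26.3%) in 769-P, against 36.9% and 21.5% of all genes tested. MST1R, the receptor RON, had 17.8, 19.6 and 30.9 FPKM in DU145 and at most 0.272 FPKM in 769-P. The ephrin receptors went in opposite directions, with EPHB4 at 36.7 ± 3.52 FPKM in DU145 and 2.7 ± 0.568 FPKM in 769-P, and EPHB2 at 3.9 ± 0.137 and 33.6 ± 4.06 FPKM. FGFR3 had 14 ± 5.03 FPKM in 769-P and 1.27 ± 0.128 FPKM in DU145. Of 31 ligands and cytokines, 14 (45.2%) were higher in 769-P and 11 (35.5%) in DU145. GDF15, a stress-induced member of the TGF-beta family, had 249, 204 and 205 FPKM in 769-P and 5.36, 8.2 and 8.93 FPKM in DU145, and IL32 had 380, 288 and 353 FPKM against 23.3, 10 and 9.26 FPKM. INHBA, an activin chain, had 10.7, 55.2 and 28.1 FPKM in 769-P and 0.721, 0 and 0 FPKM in DU145, and BMP4 had 10.4, 20.9 and 26.2 FPKM in DU145 and at most 0.271 FPKM in 769-P. PDGFA, PDGFB and PDGFC were all higher in 769-P, with differences of -2.23, -2.94 and -3.04.

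Tumour suppressors showed large differences at few genes. Of 37 suppressors and oncogenes that passed, 13 (35.1%) were higher in DU145, 11 (29.7%) higher in 769-P and 13 not called, against 36.9% and 21.5% called among all genes, with a median of 0.16, the same as for all genes tested. A difference of 4-fold or more was called for 3 of them, CDKN2A and VHL included, all higher in DU145. RB1 had 22.5, 18.7 and 14.6 FPKM in 769-P and 4.75, 6.12 and 6.35 FPKM in DU145, and CDKN1A, the inhibitor p21, had 210, 189 and 163 FPKM in 769-P and 70.6, 60.2 and 42.9 FPKM in DU145. In DU145 a low RB1 thus went with a high CDKN2A, and in 769-P the order was the reverse. MTAP, the neighbour of CDKN2A on chromosome 9, differed in the same direction by less, with 5.62, 3.16 and 3.31 FPKM in 769-P and 10.1, 7.42 and 7.81 FPKM in DU145, and its difference of 0.93 lost the call without the DU145 NC and 769-P si2 libraries (adjusted p = 0.111).

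Enzymes of drug and steroid metabolism were more often higher in DU145, with 25 of 36 (69.4%), but the aldehyde and aldo-keto enzymes led the other side. That side held 9 (25%), and the shares of all genes tested were 36.9% for DU145 and 21.5% for 769-P. ALDH1A1, which oxidises retinal, had 21.3, 27.9 and 21.7 FPKM in 769-P and 0.0823, 0 and 0.142 FPKM in DU145. AKR1C3, a steroid reductase with near-identical relatives, had 277, 141 and 242 FPKM in 769-P and 18 ± 8.65 FPKM in DU145. GSTP1 and CYP2S1 led the genes higher in DU145, and CYP2S1 had 20.7 ± 2.32 FPKM there and at most 0.307 FPKM in 769-P. Of 193 solute carriers that passed, 95 (49.2%) were higher in DU145 and 38 (19.7%) in 769-P, against 36.9% and 21.5% of all genes tested. The split became 72 and 54 after quantile normalization. SLC29A2, a nucleoside transporter, had 29, 29.7 and 50.9 FPKM in DU145 and at most 0.272 FPKM in 769-P, and SLC16A4 had 23.8, 21.1 and 35.5 FPKM in 769-P and at most 0.697 FPKM in DU145.

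Among the HOX genes, which mark position along the body axis, those that passed the filter were higher in DU145 almost throughout. Of 34 HOX genes, 19 passed the filter and 15 did not. Of the 19, 18 (94.7%) were higher in DU145 and 1 (5.26%), HOXA4, was higher in 769-P (difference -1.52). The shares of all genes tested were 36.9% and 21.5%. A gene that passes the filter through DU145 alone has to differ, so these counts are descriptions only. The counts were the same after quantile normalization. The HOXB cluster on chromosome 17 held the largest differences. HOXB7 had 26.6, 33.2 and 27 FPKM in DU145 and 0, 0 and 0.125 FPKM in 769-P (difference 4.84, standard error 0.19, adjusted p = 4.15e-10). HOXB6 had 22.4, 16.6 and 24.7 FPKM in DU145 and at most 0.281 FPKM in 769-P, and HOXB9 had 12.9, 18.2 and 14.2 FPKM and at most 0.238 FPKM. HOXB5 had 13.1, 14.1 and 12 FPKM in DU145 and was listed at 0 in all 769-P libraries. HOXB13, which lies apart at the end of the cluster, was at or near 0 in both lines. In 769-P the summed level of all HOX genes was 18.5 to 23.1 FPKM, and in DU145 it was 150 to 181 FPKM.

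**Figure D4:**
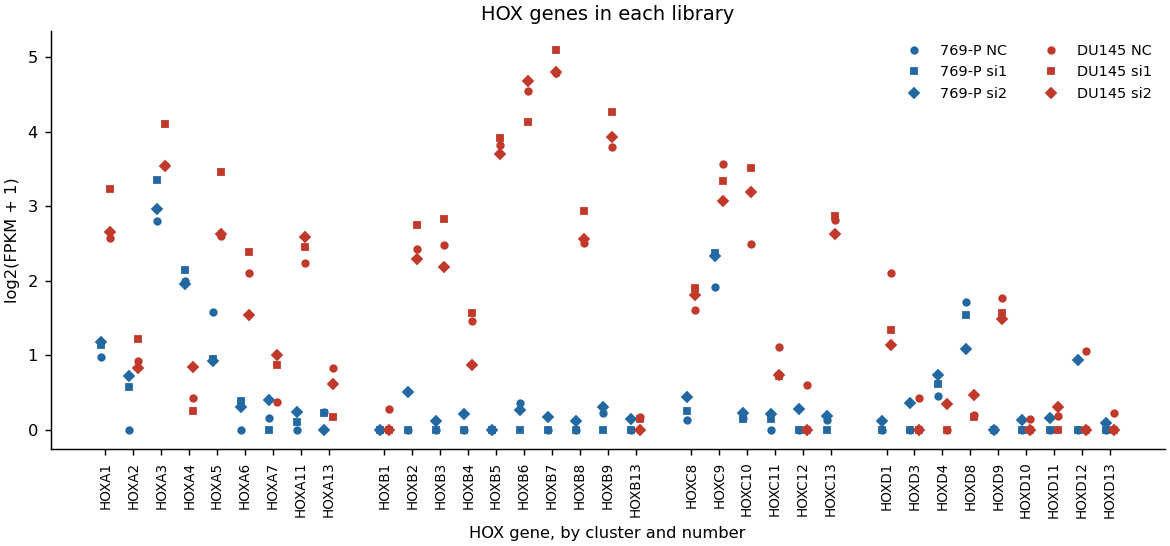
Expression of 34 HOX genes in log2(FPKM + 1), grouped by cluster A to D on the x axis, with 1 point for each library, blue for 769-P and red for DU145, and circle, square and diamond for NC, si1 and si2. The red points of HOXB5 to HOXB9 lie well above the blue points near 0, and HOXA4 has its blue points on top.

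Genes often used as references were not all level between the lines. ACTB, the beta actin gene, had 2344, 3154 and 2758 FPKM in 769-P and 2106, 2613 and 2610 FPKM in DU145, with overlapping groups and a difference of -0.17 (standard error 0.17, adjusted p = 0.419). GAPDH had 4576, 3538 and 3693 FPKM in 769-P and 2855, 1976 and 2736 FPKM in DU145, and its difference of -0.65 was called (adjusted p = 0.00749), but not without either control library (adjusted p = 0.211). YWHAZ had 568, 537 and 431 FPKM in 769-P and 181, 177 and 185 FPKM in DU145. Of 18 reference genes 8 (44.4%) were higher in 769-P and 4 (22.2%) in DU145, against 21.5% and 36.9% of all genes tested. RPL13A, with 2126 ± 109 and 1214 ± 147 FPKM, lost its call without either control library (limma, adjusted p = 0.0772 and 0.0804).

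Cytosolic ribosomal protein genes were mostly not called without quantile normalization, with 42 of 69. Higher in 769-P were 21 (30.4%) and higher in DU145 6 (8.7%), against 21.5% and 36.9% of all genes tested. After quantile normalization 22 were higher in each line, so that most of the 69 were then called. RPS29 had 478 ± 55.4 FPKM in 769-P and 2024 ± 101 FPKM in DU145, RPS27 1045 ± 90.5 and 3078 ± 621 FPKM, and RPS4X, on the X chromosome, 887 ± 133 and 303 ± 46.1 FPKM. RPL39L, a testis form, was higher in DU145 by 2.52. Of 35 proteasome subunits 8 (22.9%) were higher in DU145 and 7 (20%) in 769-P, against 36.9% and 21.5% of all genes tested. PSMA6, on chromosome 14, and PSMD4, on chromosome 1, were higher in DU145 by 1.93 and 1.06, and PSMB10, an immunoproteasome subunit, and PSMA5 differed by -1.22 and -0.92. Many genes of these families, like GAPDH, GGT1, MT1E and HIST2H2BC, have near-identical copies, and how their reads were shared among copies is not given in the sources used here.

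Markers of other cell types were mostly below the filter, which 5 of 19 brain markers, 2 of 12 neuroendocrine, 1 of 12 blood, 1 of 10 endothelial and 1 of 9 fibroblast markers passed. NEFL, a neurofilament, had 43.1 ± 11.9 FPKM in 769-P and 5.06 ± 1.8 FPKM in DU145, and its partner NEFM had the reverse order, with 2.87, 3.34 and 4.24 FPKM in DU145 and at most 0.146 FPKM in 769-P. MBP was higher in DU145 by 1.2, and ENO2, the enolase of neurons, had 40.1 ± 3.51 FPKM in 769-P and 19.4 ± 2.96 FPKM in DU145. DDC, which is also a tubule enzyme, had 6.47, 1.66 and 6.82 FPKM in 769-P and at most 0.617 FPKM in DU145. CD68, a lysosomal protein, and EGFL7 were higher in 769-P with differences of -1.13 and -0.54, and the EGFL7 call was lost without either si1 library (adjusted p = 0.0729 and 0.0687). Of the 5 brain markers that passed, 2 (40%) were higher in each line, against 36.9% of all genes for DU145 and 21.5% for 769-P. The fibroblast marker that passed, COL1A1, and the 1 of 43 cancer-testis antigens that passed were not called, and none of the olfactory receptors passed.

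Several list counts moved by more than 1.5 times without the DU145 NC and 769-P si2 libraries. So did the counts over all genes tested, from 4319 to 2734 higher in DU145 and from 2522 to 1332 higher in 769-P. The smaller list counts are therefore not particular to these lists. With the remaining 4 libraries the mesenchymal genes higher in 769-P were 9, the growth factors higher in 769-P 9, the tumour suppressors and oncogenes 6 higher in DU145 and 7 in 769-P, and the drug and steroid enzymes higher in DU145 16. The solute carriers higher in 769-P were then 21, the ribosomal protein genes higher in 769-P 12, the S100 genes higher in 769-P 2, the proteasome subunits 3 higher in DU145 and 4 in 769-P, the matrix metalloproteinases higher in 769-P 1, the reference genes higher in DU145 1, and the renal factors higher in DU145 1.

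The direction of the differences varied along the genome. Of 342 genes tested on chromosome 14, 255 (74.6%) were higher in DU145 and 22 (6.43%) in 769-P, with a median difference of 0.88. HIF1A, FOXA1, NKX2-1, CKB, BMP4 and PSMA6 lie on this chromosome. Chromosome 13 went the other way, with 90 of 180 genes (50%) higher in 769-P and 21 higher in DU145 and a median of -0.44, and it holds RB1, COL4A1 and COL4A2. The X chromosome had 129 of 310 genes (41.6%) higher in 769-P and a median of -0.34. After quantile normalization the medians were 0.66 for chromosome 14, -0.73 for chromosome 13 and -0.6 for the X chromosome, so the order of these chromosomes did not depend on the scaling. The number of copies of these chromosomes was not measured in the files, and its part in these values was not tested.

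**Figure D5:**
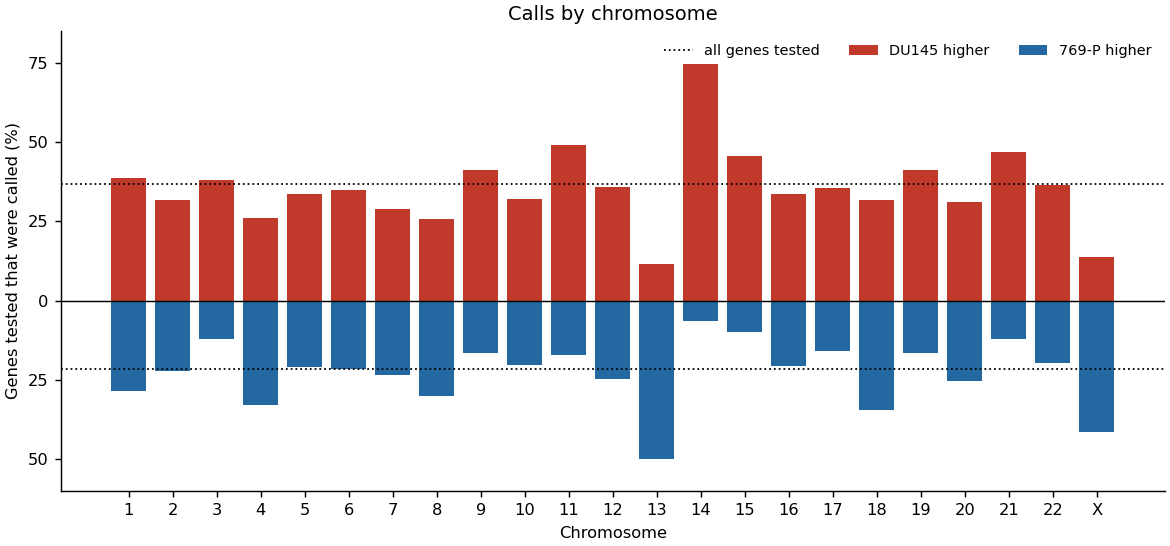
Share of the genes tested on each chromosome that were called higher in DU145 (red, upward) or in 769-P (blue, downward), in percent, with dotted lines at 36.9% and 21.5%, the shares of all genes tested. Chromosome 14 has the tallest red bar at 74.6%, and chromosomes 13 and X have the longest blue bars at 50% and 41.6%.

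In windows of 10 Mb with at least 15 genes tested, 245 in all, the median difference lay between -1.39 and 1.92, with quartiles of -0.17 and 0.34. The highest median, 1.92, was on chromosome 14 between 30 and 40 Mb, where 33 of 35 genes were higher in DU145 and 1 was higher in 769-P. NKX2-1, ARHGAP5-AS1 and COCH, a gene of the inner ear, had the largest differences there, and COCH had 34 ± 1.72 FPKM in DU145 and 3.31 ± 0.495 FPKM in 769-P. The next were the neighbouring windows of chromosome 1 between 140 and 160 Mb, with medians of 1.17 and 1.13. After quantile normalization the window of chromosome 14 was still the highest at 1.68, and those of chromosome 1 had 0.94 and 0.99, with another window between them. In the windows of chromosome 1, PDE4DIP and HIST2H2BC were higher in DU145 by 2.9 and 3.01, and CRABP2, which binds retinoic acid, by 4.09, along with S100A6 and MUC1, whereas PDZK1, a scaffold of tubule transporters, was higher in 769-P (difference -3.31).

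The lowest medians were on chromosome 4 between 180 and 190 Mb (-1.39) and between 150 and 160 Mb (-1.1), and on chromosome 18 between 70 and 80 Mb (-0.91). After quantile normalization the windows of chromosome 4 were still the lowest, at -1.69 and -1.49, whereas other windows lay below that of chromosome 18, which had -0.99. In the first of these windows 16 of 18 genes were higher in 769-P, among them FAT1, a giant cadherin, with 22.4 ± 3.19 FPKM in 769-P and 2.18 ± 0.125 FPKM in DU145, TENM3 and DCTD. In the second, 15 of 16 were higher in 769-P, with PDGFC, FGB, a fibrinogen chain, and FNIP2 in front at differences of -3.04, -3.01 and -1.94. On chromosome 18 it was 10 of 15, with CNDP2, ATP9B and NFATC1 at -2.31, -2.06 and -1.43.

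No gene's line difference was called as changed by the knockdown. The difference in the siRNA libraries minus that in the control libraries was called for 0 genes by limma, and 295 genes (2.52% of those tested) had an unadjusted p under 0.05. For PAX8 the difference was -5.91 with the control siRNA, -5.43 with siRNA 1 and -5.66 with siRNA 2, and for HIF1A it was 3.87, 4.3 and 3.31. The spread over the siRNAs was therefore small beside the difference between the lines for both genes. With a single control library per line, small effects of the knockdown on these differences were not detectable here.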

How the data were processed

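The authors deposited 1 table of FPKM values per library, computed from the aligned reads, with no read counts. The submitters' processing notes name FastQC, cutadapt, TopHat2 and hg19, and the study's methods add Cufflinks for differential expression. The labels and the study's methods differ on the library kit and the amount of RNA, and the study states several biological replicates where the labels show 1 library per siRNA and line. The depth of a library is known only relative to another, and no counting interval was given.

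Rows with the same symbol were summed, which turned 26006 rows into 24551 symbols, and values were taken as log2(FPKM + 1). Genes averaging 1 FPKM or more across all 6 libraries were kept, 155 small RNA genes were left out, and 11710 were tested. limma 3.58.1 (R 4.3.3) was fitted with the line as the effect and the siRNA label as a block, with a trended prior and Benjamini-Hochberg adjustment at 0.05 over all genes tested. The block was set by the rule of the comparison. Libraries with the same siRNA label in their titles deviated together (r = 0.42, 0.42 and 0.33 across genes). Other pairs had r = -0.3 to -0.09. Deviations were taken from the mean of each line, so positive values for same-label pairs bring negative ones for other pairs. The fit was tested on simulated data. The members and gene lists were chosen with earlier results of these data known.

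Genes were named by rule: SPOP, the 12 largest and 12 smallest differences, the 4 largest of each list, a set of lineage genes whatever their values, and 3 genes in each of the 3 highest and 3 lowest windows. SIX2, SIM2, SOX9, FBP1, GATM, CLDN4, MAL2, HOXA4, KRT8, VEGFA, SLC45A3, PDGFA, PDGFB, COL1A1 and ETV1 were named after their values were seen. Promoter features were read from GRCh37 with GENCODE gene starts for 10387 of the genes tested, and the printed sequences come from RefSeq. A few listed symbols were not analysed here, and some genes that the rule names are not reported here. Alternatives changed the pseudocount, filter, scaling, block, prior, duplicate rows, background and libraries.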

Additional observations from a re-analysis of the deposited data

How the results depend on the processing

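No gene called in the comparison of the lines was called in the opposite direction under any alternative that was run. With a mean of at least 5 FPKM, 2754 genes were higher in DU145, among 7976 tested. Without the DU145 NC and 769-P si2 libraries, an alternative chosen after seeing the data, 2734 genes were higher in DU145 and 1332 higher in 769-P, and 4051 of the calls with all libraries were kept. Leaving out 1 library at a time gave 3459 to 4013 genes higher in DU145 and 1944 to 2358 higher in 769-P. Without the siRNA label as a replicate block, 3584 genes were higher in DU145 and 1968 in 769-P, and among named genes SPOP alone lost its call. SPOP turned to -0.54 without the DU145 NC and 769-P si2 libraries.

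Without a filter on low values 4974 genes were higher in DU145 and 2455 in 769-P, and with a pseudocount of 0.1 the counts were 4230 and 2469. The other alternatives stayed within 1.5 times of the counts with all libraries. Differences on the log2(FPKM + 1) scale understate those of genes with low values, and 1 library per siRNA and line limits the precision.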
